A study of Schizosaccharomyces pombe with 8 samples.

Results

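The RNA of fission yeast cells (Schizosaccharomyces pombe) that lacked both the Ccr4-Not subunit Mot2 and the long noncoding RNA mamRNA was compared with that of wt cells. The comparison takes 4 of the 8 libraries of the series, the 2 mot2∆ mamRNA∆ libraries and the 2 wt libraries, and covers every gene or noncoding transcript counted in its sense orientation. Of 6338 such features listed, 5988 had enough reads to be tested. All strains were homothallic (h90). The double mutant carried mamRNA::hygTK and mot2::kanMX, whereas the single mutants, which share the same wt libraries as controls, carried mot2::natMX or mamRNA::natMX. Cells of every genotype were grown in EMM minimal medium for 2 days at 30 °C and harvested at an optical density of 0.6, while still growing exponentially, and total RNA was depleted of ribosomal RNA before paired-end sequencing of 75 nt. The labels do not say whether the 2 libraries of a genotype came from separate cultures, so that the spread between them may be technical.

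Mot2 is the ubiquitin ligase subunit of Ccr4-Not, a complex that shortens the poly(A) tails of messenger RNAs. In dividing cells it acts with the RNA-binding protein Mmi1 to keep down Mei2, a master regulator of meiosis. mamRNA is transcribed immediately upstream of the small nucleolar RNA gene snoU14 and is bound by both Mmi1 and Mei2. The genes described here mostly belong to programmes by which fission yeast responds to its medium. The GATA factor Fep1 represses iron uptake genes when iron is plentiful, and Php4, itself a target of Fep1, represses genes of iron-using proteins when iron is scarce. The zinc-finger activator Pho7 drives the secreted acid phosphatase pho1 and the transporters pho84 and tgp1 when phosphate is short. The mitogen-activated kinase Sty1 and the transcription factor Atf1 induce a common set of genes under many stresses.

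Levels are given as CPM, counted reads scaled to a common library size with TMM factors, which correct for differences in library composition. A feature is said to have risen or fallen where edgeR's quasi-likelihood test gave a Benjamini-Hochberg adjusted p under 0.05 over all 6620 features tested, and it is called where its log2 fold change was also beyond 1 in either direction. The wt libraries held 22381332 and 26408549 counted reads and the mot2∆ mamRNA∆ libraries 34215016 and 31594275. The median absolute difference between replicates was 0.151 log2 units in wt and 0.0597 in the double mutant, so that most of the replicate spread came from wt. Ribosomal RNA took 2.28% and 0.723% of the wt libraries against 0.165% and 0.134% of the double mutant libraries. Antisense features, which take 5.37% to 5.52% of these 4 libraries, changed with their sense genes (Pearson r = 0.921 across 561 pairs of genes, which are not independent replicates). Across these pairs the median ratio of antisense to sense counts was 0.842 in wt replicate 1. The counting may therefore not separate the strands, and a sense value may include antisense reads. Among protein-coding genes the log2 fold change also moved with gene length (Spearman rho = 0.231 over 5072 genes). Its median went from -0.17 up to 750 nt to 0.12 beyond 3000 nt. The ratio of replicate 2 to replicate 1 moved with length as well in wt (Spearman rho = -0.137) and hardly in the double mutant (-0.0122). The part of length in the results on short or long genes was not tested.

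The labels could be checked against mot2 alone, as mamRNA was not analysed here. mot2 measured 22.3 and 23.4 CPM in wt and 2.72 and 2.77 CPM in mot2∆ mamRNA∆ (log2 fold change -3.06 ± 0.11 SE, edgeR adjusted p = 2.9e-09), so that some reads remained on the feature. snoU14, the neighbour of mamRNA, measured 58.9 and 43.7 CPM in wt against 61.4 and 65.1 CPM in the double mutant and did not pass the test (0.31 ± 0.15, edgeR adjusted p = 0.0877). Of the other members of Ccr4-Not and its partner, the scaffold not1 rose by 0.68 ± 0.078, the deadenylase caf1 by 0.68 ± 0.07 and mmi1 by 0.27 ± 0.063 on the log2 scale (edgeR adjusted p up to 0.00306), and not2, not3, rcd1, ccr4 and caf4 did not pass.

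In the double mutant, 188 sense features were called higher and 348 lower, which is 3.14% and 5.81% of those tested. Without a fold threshold, 29.1% of sense features rose and 30.3% fell, with a median log2 fold change of -0.008 over all of them. Groups of genes are read against these shares, as descriptions, because lists and members were chosen with earlier results of these data known. The plot of 24 gene lists shows that iron uptake stands highest by its median and phosphate acquisition lowest. The list of ribosome biogenesis names is displaced towards higher values, though not in every member. The lists of stress, chaperone and carbon genes lie to the left.

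**Figure D1:**
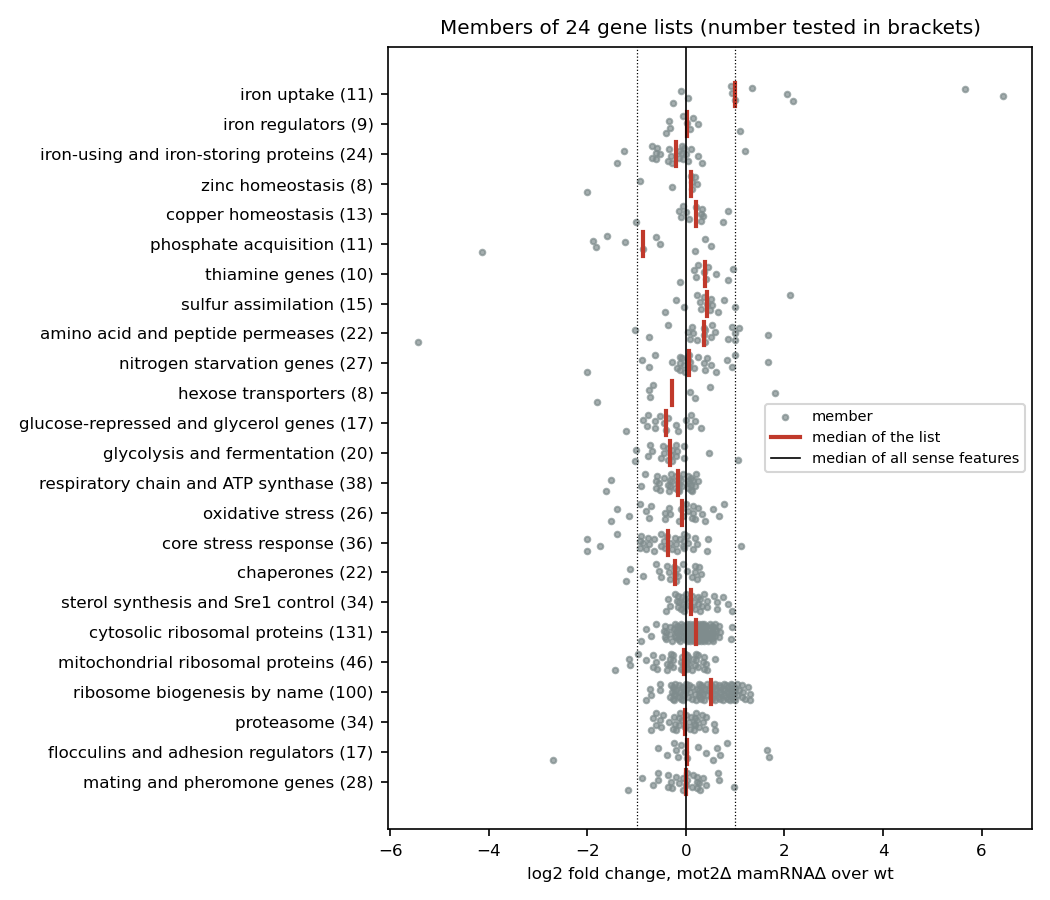
Log2 fold change of mot2∆ mamRNA∆ over wt (x axis) for each tested member of 24 gene lists (rows, with the number tested). Points are genes, red bars list medians, the solid line the median of all 5988 sense features and dotted lines the fold threshold. Iron uptake has a median of 1.01 and phosphate acquisition of -0.88.

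Iron uptake genes had the highest median of the lists. That median was 1.01 on the log2 scale. Of 11 members, 8 rose and 1 fell, and 6 were called higher against a background of 3.14%. shu1, counted among the 8 and the 6, passed the filter on low counts through genotypes in which it was higher. Siderophore and heme uptake carried the largest changes. str3, a siderophore-iron transporter, measured 4.09 and 5.28 CPM in wt and 411 and 405 CPM in mot2∆ mamRNA∆. Its log2 fold change of 6.43 ± 0.42 (edgeR adjusted p = 1.95e-07), an 86.1-fold increase, was the largest increase among all sense features called. str1, another siderophore-iron transporter and far more abundant in wt, rose from 470 and 401 CPM to 1854 and 1764 CPM (2.05 ± 0.1). The third transporter of the family, str2, stayed between 1541 and 1761 CPM in the 4 libraries and did not pass the test (edgeR adjusted p = 0.381). shu1, a heme uptake protein, had 1 and 0 reads in the wt libraries against 50 and 29 in the double mutant. This gives a ratio of 61.0 with an exact 95% interval for counting error of 10.6 to 2440, so that the direction is clear and the size is not. abc3, a vacuolar ABC transporter induced by low iron, rose from 96.8 and 90.6 CPM to 244 and 230 CPM (1.34 ± 0.14).

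Reductive uptake, in which ferric iron is reduced at the surface and then oxidised and imported, moved the same way. All 4 members rose. The ferric reductase frp2 had the largest change, from 5.64 and 5.64 CPM to 25.4 and 25.9 CPM (2.18 ± 0.15, edgeR adjusted p = 2.42e-07). The other reductase, frp1, rose from 17 and 14.3 CPM to 29.6 and 29.5 CPM (0.92 ± 0.15). The multicopper oxidase fio1 and its partner permease fip1, which are divergently transcribed from one intergenic region, rose by 0.94 ± 0.18 and 1.01 ± 0.22, the latter from 189 and 151 CPM to 341 and 342 CPM and past the threshold in each alternative run but the fit without wt replicate 2 (edgeR adjusted p = 0.0513). In each of these 4 genes the double mutant libraries lay above both wt libraries. Such separation, in one direction or the other, was found in 535 of the 536 sense features called. Siderophore synthesis did not follow. sib1, the synthetase of ferrichrome, stayed between 433 and 460 CPM (edgeR adjusted p = 0.708), and sib2, which makes its hydroxyornithine precursor, fell by 0.25 ± 0.072, a decrease that did not pass without wt replicate 1 or without mot2∆ mamRNA∆ replicate 2 (edgeR adjusted p = 0.079 and 0.132).

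Upstream sequences of iron uptake genes are shown because they hold the element through which Fep1 is known to act. Each is the 250 bases before the transcript start in the RefSeq annotation of build ASM294v3, 5′ to 3′ on the strand of the gene, with matches to ATCNGATAA on either strand in capitals.
fio1, chrI:4234822-4235071, forward strand: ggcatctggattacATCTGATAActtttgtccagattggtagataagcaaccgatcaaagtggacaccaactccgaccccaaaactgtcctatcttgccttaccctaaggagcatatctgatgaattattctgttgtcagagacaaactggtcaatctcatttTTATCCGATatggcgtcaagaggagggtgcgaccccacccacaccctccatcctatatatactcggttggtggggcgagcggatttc
abc3, chrII:122392-122641, forward strand: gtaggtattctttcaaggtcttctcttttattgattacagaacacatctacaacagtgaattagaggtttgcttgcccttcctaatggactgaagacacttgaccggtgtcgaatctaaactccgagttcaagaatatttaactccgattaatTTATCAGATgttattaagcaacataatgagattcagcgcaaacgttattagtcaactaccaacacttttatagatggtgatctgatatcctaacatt
frp1, chrII:162393-162642, reverse strand: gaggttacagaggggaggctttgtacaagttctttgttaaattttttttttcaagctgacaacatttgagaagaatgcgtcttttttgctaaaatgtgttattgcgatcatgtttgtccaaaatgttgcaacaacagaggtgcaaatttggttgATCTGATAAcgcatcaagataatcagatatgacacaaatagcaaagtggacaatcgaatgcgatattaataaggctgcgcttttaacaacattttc
str2, chrIII:1442016-1442265, reverse strand: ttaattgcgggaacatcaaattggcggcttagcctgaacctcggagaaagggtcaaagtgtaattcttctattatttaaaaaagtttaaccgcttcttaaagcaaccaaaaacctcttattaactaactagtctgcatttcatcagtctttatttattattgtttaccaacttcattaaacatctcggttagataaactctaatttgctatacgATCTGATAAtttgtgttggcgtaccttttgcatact
The element was found in 6 of the 11 members (str2, shu1, abc3, fio1, fip1 and frp1) and in 70 of 5091 upstream windows of protein-coding genes (1.37%). fio1 holds 2 matches, which begin 236 and 87 bases upstream of its start, and the window of fip1 holds the same 2 because the windows overlap. The windows of str3, str1 and frp2, which rose most among the well-counted members, held no match, while str2, which did not pass the test, held 1. The windows are not all alike. The annotation puts the transcript start of frp2 and shu1 at the coding start, and that of str1 866 bases before it. Sites outside the windows were not searched. GATAA alone, which the longer element contains, was too common to describe the list (54.2% of windows).

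Among iron regulators, php4 rose from 48.2 and 43.2 CPM to 99.5 and 96.0 CPM (1.1 ± 0.094, edgeR adjusted p = 1.45e-06), and it was the only regulator of 9 to rise. The repressor fep1 fell from 192 and 171 CPM to 141 and 132 CPM (-0.41 ± 0.082). The CCAAT-binding subunit php2 fell by 0.34 ± 0.066 and the glutaredoxin grx4 by 0.31 ± 0.096 on the log2 scale. The grx4 decrease did not pass when wt replicate 2 or either double mutant library was left out. Its log2 fold change was -0.17 without wt replicate 2. php3, php5, fra2, tup11 and tup12 ranged from -0.056 to 0.24 and did not pass. Genes of iron-using and iron-storing proteins lay mostly below wt, with 12 of 24 lower and 3 higher against backgrounds of 30.3% and 29.1% (list median -0.21). The 4 subunits of succinate dehydrogenase, an iron-sulfur and heme enzyme, fell by 0.52 (sdh1) to 0.62 (sdh3). The vacuolar iron importer pcl1 fell by 0.34 ± 0.072. The heme enzyme catalase ctt1 fell most, from 606 and 517 CPM to 222 and 207 CPM (-1.39 ± 0.12), and it also belongs to the stress lists. Against this trend, the iron-sulfur scaffold isu1 rose from 132 and 125 CPM to 289 and 304 CPM (1.2 ± 0.08), while isa2 of the same assembly pathway fell by 1.25 ± 0.16. A CCAAT box was found in 18 of the 24 windows of this list and in 35.3% of all windows.

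Phosphate acquisition changed in the opposite direction. Of 11 members tested, 8 fell and 3 rose, and 5 were called lower against a background of 5.81% (list median -0.88). The acid phosphatase pho1 measured 4252 and 3503 CPM in wt and 210 and 231 CPM in mot2∆ mamRNA∆. This was a 17.6-fold decrease (log2 fold change -4.14 ± 0.12, edgeR adjusted p = 6.7e-10). All 3 transporters of the list were called lower. tgp1, which imports glycerophosphodiesters, fell from 91.6 and 81.4 CPM to 22 and 24.5 CPM (-1.89 ± 0.085), pho84, the high-affinity phosphate transporter, from 1414 and 1404 CPM to 424 and 501 CPM (-1.61 ± 0.12), and SPAC23D3.12, a further phosphate transporter, from 653 and 640 CPM to 287 and 264 CPM (-1.23 ± 0.12). Polyphosphate synthesis fell as well. vtc4, the catalytic subunit of the vacuolar transporter chaperone that makes polyphosphate, went from 853 and 701 CPM to 217 and 220 CPM (-1.83 ± 0.094), and vtc2 from 847 and 766 CPM to 555 and 566 CPM (-0.53 ± 0.082). The regulators moved less. pho7 rose by 0.51 ± 0.077, the kinase csk1 by 0.4 ± 0.12 and the inositol pyrophosphate kinase asp1 by 0.19 ± 0.068, whereas SPAC6B12.07c, a ubiquitin ligase with a phosphate-sensing SPX domain, fell by 0.88 ± 0.077 and the pyrophosphatase aps1 by 0.61 ± 0.089. The csk1 and asp1 increases were not past the threshold with total-count scaling (edgeR adjusted p = 0.057 and 0.224). That of asp1 also did not pass with only the 4 libraries compared (edgeR adjusted p = 0.056). It was lost as well when wt replicate 1 or either double mutant library was left out.

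A few phosphate genes outside the list, chosen after their values were seen, did not all move one way. SPBPB2B2.06c, annotated as a phosphoprotein phosphatase, fell from 155 and 143 CPM to 5.84 and 6.24 CPM (-4.62 ± 0.16), and nrf1, a further subunit of the vacuolar transporter chaperone, fell by 1.93 ± 0.092. SPCC2H8.02, annotated as an inorganic phosphate transporter, rose instead from 38.2 and 38.4 CPM to 104 and 114 CPM (1.51 ± 0.091, edgeR adjusted p = 9.9e-08). The upstream windows of pho1, tgp1, SPAC23D3.12 and SPBPB2B2.06c are shown because each holds a match, in capitals, to the Pho7 site.
pho1, chrII:4447256-4447505, forward strand: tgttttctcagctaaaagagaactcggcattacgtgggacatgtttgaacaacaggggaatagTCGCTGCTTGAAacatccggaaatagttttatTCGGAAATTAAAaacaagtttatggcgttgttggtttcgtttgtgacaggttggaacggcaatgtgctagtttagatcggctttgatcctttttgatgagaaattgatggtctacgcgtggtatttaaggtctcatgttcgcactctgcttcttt
tgp1, chrII:352412-352661, reverse strand: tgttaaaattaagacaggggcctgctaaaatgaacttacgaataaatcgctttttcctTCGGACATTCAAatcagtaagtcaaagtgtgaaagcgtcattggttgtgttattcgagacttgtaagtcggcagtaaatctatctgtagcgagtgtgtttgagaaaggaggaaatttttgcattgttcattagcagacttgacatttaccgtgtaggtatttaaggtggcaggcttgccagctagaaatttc
SPAC23D3.12, chrI:4362218-4362467, forward strand: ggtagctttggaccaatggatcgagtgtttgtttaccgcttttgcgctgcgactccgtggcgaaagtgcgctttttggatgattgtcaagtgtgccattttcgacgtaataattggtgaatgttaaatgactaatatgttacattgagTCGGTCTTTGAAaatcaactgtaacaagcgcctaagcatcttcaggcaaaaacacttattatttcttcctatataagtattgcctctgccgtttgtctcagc
SPBPB2B2.06c, chrII:4471165-4471414, reverse strand: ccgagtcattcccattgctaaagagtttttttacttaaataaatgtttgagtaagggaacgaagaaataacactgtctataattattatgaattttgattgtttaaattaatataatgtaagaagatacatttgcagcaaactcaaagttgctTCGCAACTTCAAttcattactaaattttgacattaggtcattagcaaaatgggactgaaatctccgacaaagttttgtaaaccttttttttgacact
pho1 holds 2 matches, which begin 187 and 155 bases upstream of its start, and tgp1 holds 1, which begins 192 bases upstream. The site was found in 3 of the 11 list members and in 100 of the 5091 windows (1.96%). No match was found in the windows of pho84 and vtc4, although both genes fell.

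**Figure D2:**
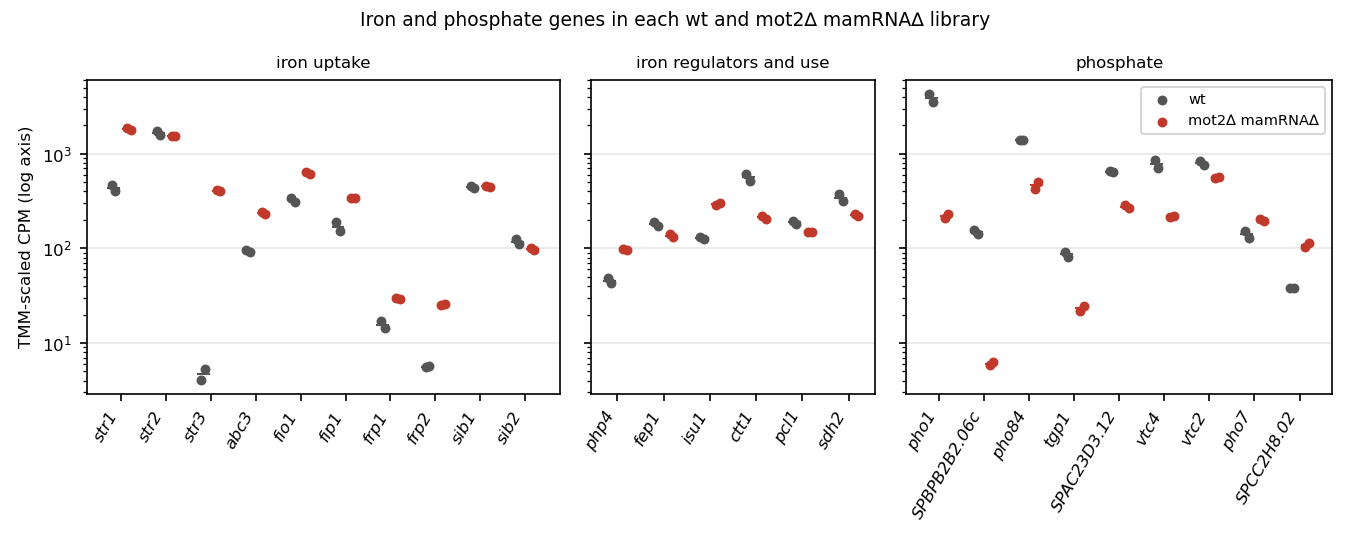
TMM-scaled CPM (log axis) of iron and phosphate genes in each of the 2 wt libraries (grey) and 2 mot2∆ mamRNA∆ libraries (red). Points are libraries and short lines their means. The libraries of str3 lie at 4.09 and 5.28 CPM in wt and at 411 and 405 CPM in the double mutant, whereas those of pho1 lie at 4252 and 3503 CPM against 210 and 231 CPM.

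The single mutants, compared with the same wt libraries, placed several of these genes differently. str3 was 4.73 ± 0.41 above wt in mot2∆ and -0.079 ± 0.51 in mamRNA∆, against 6.43 in the double mutant. frp2 was 0.61 ± 0.16 above wt in mot2∆ and 0.66 ± 0.18 below it in mamRNA∆, against 2.18 with both deletions. frp1 measured -0.18 ± 0.16 in mot2∆ and -1.97 ± 0.18 in mamRNA∆, so that its increase was seen with neither single deletion. shu1, on few reads, measured 5.99 ± 0.82 in mot2∆ and 1.7 ± 1.65 in mamRNA∆, against 5.66 in the double mutant. For pho1 neither single deletion came near the double mutant, with 0.27 ± 0.11 in mot2∆ and -0.34 ± 0.11 in mamRNA∆ against -4.14. For tgp1, by contrast, the loss of mamRNA alone gave the larger decrease (-2.61 ± 0.089, against -0.59 ± 0.08 in mot2∆ and -1.89 in the double mutant). SPBPB2B2.06c measured -4.34 ± 0.16 in mot2∆, -0.74 ± 0.13 in mamRNA∆ and -4.62 in the double mutant. In edgeR's test of the interaction, which asks whether the changes of the single mutants add up to that of the double mutant on the log2 scale, 47.6% of sense features passed. Among these were pho1 (-4.06 ± 0.16, adjusted p = 2.72e-09), frp2 (2.22 ± 0.22) and str3 (1.78 ± 0.59, adjusted p = 0.0268). Those of SPBPB2B2.06c (0.45 ± 0.23, edgeR adjusted p = 0.117) and shu1 (-2.03 ± 1.68, edgeR adjusted p = 0.343) did not pass.

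**Figure D3:**
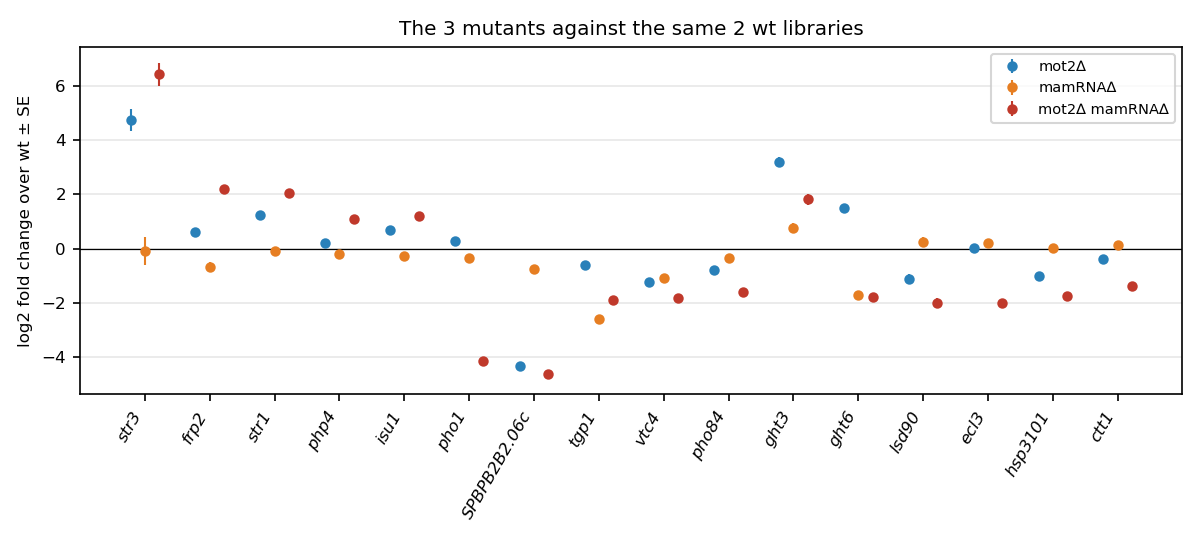
Log2 fold change over wt (y axis, ± SE) of 16 genes in mot2∆ (blue), mamRNA∆ (orange) and mot2∆ mamRNA∆ (red), all against the same 2 wt libraries, so that the 3 values of a gene share their control. pho1 lies at 0.27, -0.34 and -4.14.

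Zinc and copper genes changed little as groups. Of 8 zinc genes, 2 rose and 2 fell. fet4, a low-affinity transporter of iron and zinc, fell from 95.7 and 78.1 CPM to 21.5 and 21.5 CPM (-2.01 ± 0.11, edgeR adjusted p = 6.55e-08) and was the 1 zinc gene called. The metallothionein zym1 fell by 0.94 ± 0.12. The high-affinity transporter zrt1 and the Golgi importer cis4 rose by 0.23 and 0.19, increases that were lost when any of several libraries was left out, and the repressor loz1 did not pass (0.11 ± 0.1). Of 13 copper genes, 6 rose, by up to 0.85, and 1 fell. The copper chaperone atx1 rose from 23.1 and 24.4 CPM to 42.2 and 43.5 CPM (0.85 ± 0.071), and the amine oxidase-like gene cao2, which has an antisense feature, fell by 1.01 ± 0.11. The high-affinity copper transporters ctr4 (0.2) and ctr5 (-0.095) and the activator cuf1 (-0.061 ± 0.07) did not pass.

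Thiamine genes rose by small amounts. Of 10 members, 8 rose, and the largest log2 fold change was 0.95 (list median 0.38). No member fell in edgeR's test, and 0 of 10 were lower at an unadjusted p under 0.05 or in DESeq2. The thiamine transporter thi9 rose from 582 and 543 CPM to 989 and 1049 CPM (0.86 ± 0.085), and bsu1, a vitamin B6 importer, by 0.95 ± 0.15. nmt1, which makes the pyrimidine part of thiamine and is among the most abundant messengers in this medium, measured 10537 and 9375 CPM in wt and 13246 and 13765 CPM in the double mutant (0.44 ± 0.11), and did not pass without mot2∆ mamRNA∆ replicate 2 (edgeR adjusted p = 0.0693). The activators thi1 and thi5 rose by 0.25 ± 0.07 and 0.36 ± 0.071. Sulfur assimilation was displaced in a similar way, with 12 of 15 members higher and 2 lower (list median 0.42). SPAC869.05c, a sulfate transporter, rose from 74.9 and 76.7 CPM to 336 and 317 CPM (2.11 ± 0.1) and was the 1 member called. The homoserine acetyltransferase met6 and the sulfite reductase subunit sir1 rose by 0.78 ± 0.077 and 0.66 ± 0.079.

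Amino acid and peptide permeases rose more often than the background, with 13 of 22 higher and 4 lower and a list median of 0.38. The proline transporter put4 rose from 34.1 and 30.1 CPM to 102 and 101 CPM (1.66 ± 0.13), although it has an antisense feature. The amino acid permeases aat1 and per1 rose by 1.08 ± 0.081 and 1.01 ± 0.1. SPBPB2B2.01, a permease gene near the right end of chromosome II, fell from 14.3 and 12.3 CPM to 0.302 and 0.297 CPM, a log2 fold change of -5.45 ± 0.22 (edgeR adjusted p = 5.16e-09) and the largest decrease among the members of any list. Nitrogen starvation genes as a whole were divided, with 9 of 27 higher, 6 lower and a median of 0.05. The 5 transporters of that list all rose, among them the oligopeptide transporter isp4 (0.93 ± 0.13). In the same list lsd90, a gene induced by nitrogen starvation and other stresses, fell by 2.01 ± 0.19, and ste11, the activator of mating genes, fell from 389 and 310 CPM to 202 and 175 CPM (-0.89 ± 0.16). Against the same wt libraries, isp4 measured 1.93 in mot2∆ and 3.78 in mamRNA∆, and per1 measured 1.4 and 1.97.

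Among the 8 hexose transporters, 2 rose and 3 fell. ght3, a gluconate symporter, rose from 70.3 and 51.6 CPM to 234 and 193 CPM (1.81 ± 0.19), and ght6 fell from 50.5 and 57.1 CPM to 16.6 and 14.4 CPM (-1.79 ± 0.1). The abundant glucose transporter ght8 fell from 1615 and 1526 CPM to 1007 and 979 CPM (-0.66 ± 0.085), and ght5, the main glucose transporter, did not pass (0.091 ± 0.13). ght6 also has an antisense feature. In mot2∆ it was 1.5 ± 0.095 above wt and in mamRNA∆ 1.7 ± 0.1 below it. The list of genes repressed by glucose, genes used for glycerol and their regulators was lower in 11 of 17 cases and higher in 1 (list median -0.41). Its 8 regulators gave 4 of the decreases and the increase. Of its 5 genes for gluconeogenesis, sucrose or starch use, 3 fell. The gluconeogenic enzyme fbp1, which has an antisense feature, fell from 47.2 and 44.1 CPM to 20.6 and 18.5 CPM (-1.22 ± 0.12). The malic enzyme mae2 fell from 2851 and 2443 CPM to 1464 and 1440 CPM (-0.87 ± 0.099). All 4 glycerol genes fell, by a median of 0.58. The decreases of gld1, dak1 and dak2 no longer passed in some fits that left out 1 library. Without wt replicate 1, gld1 was at -0.64 and dak2 at -0.45. Without mot2∆ mamRNA∆ replicate 2, dak1 was at -0.35 and dak2 at -0.47. Glycolysis and fermentation also lay below wt, with 11 of 20 lower and 2 higher (list median -0.33). The phosphoglycerate kinase pgk1 fell from 8981 and 7590 CPM to 4770 and 4957 CPM (-0.77 ± 0.11), while the aldehyde dehydrogenase atd1 rose by 1.05 ± 0.093. Respiratory chain and ATP synthase subunits fell in 18 of 38 cases and rose in 2 (list median -0.16). The largest changes were those of the small subunits cox13 (-1.61 ± 0.082) and qcr6 (-1.51 ± 0.077). The median length of this list was 1035 nt against 1776 nt over all protein-coding genes.

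Core stress genes were lower in the double mutant more often than sense features in general. Of 36 members, 20 fell and 4 rose, against backgrounds of 30.3% and 29.1%, and the list median was -0.36. lsd90 fell from 1017 and 946 CPM to 267 and 221 CPM (-2.01 ± 0.19, edgeR adjusted p = 3.2e-06). ecl3, a small protein that extends chronological lifespan, fell from 61.8 and 46.3 CPM to 12.5 and 14.2 CPM (-2.01 ± 0.13). Its gene lies 98.0 kb from the right end of chromosome II, where 21 of 31 features within 100 kb were called lower. The glyoxalase hsp3101, which has an antisense feature, fell by 1.73 ± 0.085. ecl1, a relative of ecl3, went the other way, from 92.5 and 74.1 CPM to 189 and 170 CPM (1.11 ± 0.1). Of the regulators, the kinase sty1 rose by 0.22, past the threshold only while both double mutant libraries and wt replicate 2 were kept (edgeR adjusted p of 0.0872 to 0.113 without one of them), while pcr1, the partner of Atf1, fell by 0.42 and atf1 itself did not pass (-0.2). Atf1's TGACGT element was found in 8 of the 36 windows and in 5.48% of all windows. Genes against oxidative stress were more divided, with 11 of 26 lower and 7 higher. The mitochondrial superoxide dismutase sod2 fell from 42.6 and 40.3 CPM to 14.2 and 14.9 CPM (-1.51 ± 0.084) and the peroxiredoxin tpx1 from 969 and 829 CPM to 402 and 408 CPM (-1.15 ± 0.087). The efflux pump gene caf5 rose by 0.76 ± 0.08. Their activators pap1 (-0.0019) and prr1 (-0.11) did not pass. Chaperones fell in 11 of 22 cases and rose in 3 (list median -0.22). The Hsp90 partners wos2 (135 and 152 CPM against 64.3 and 58.2 CPM, -1.22 ± 0.077) and sti1 (234 and 245 CPM against 110 and 109 CPM, -1.13 ± 0.073) were the 2 members called. hsf1, the heat shock factor, rose by 0.18, and bip1, the chaperone of the endoplasmic reticulum, by 0.26, and neither passed when either double mutant library was left out (edgeR adjusted p of 0.0889 to 0.192). A heat shock element, GAANNTTC, was found in 11 of 22 windows and in 9.57% of all windows.

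The single mutants placed these stress genes differently from one another. sod2 measured -2.04 in mot2∆ and -0.18 in mamRNA∆, against -1.51 in the double mutant. ecl3 was 0.03 above wt in mot2∆ and 0.2 above it in mamRNA∆. ctt1 measured -0.38 ± 0.12 in mot2∆ and 0.13 ± 0.12 in mamRNA∆, against -1.39 in the double mutant, and its interaction was -1.13 ± 0.17 (edgeR adjusted p = 0.000198). hsp104 was above wt in both single mutants (0.26 ± 0.091 and 0.86 ± 0.092) and below it in the double mutant (-0.33 ± 0.091), the last not past the threshold without mot2∆ mamRNA∆ replicate 2 (edgeR adjusted p = 0.171).

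**Figure D4:**
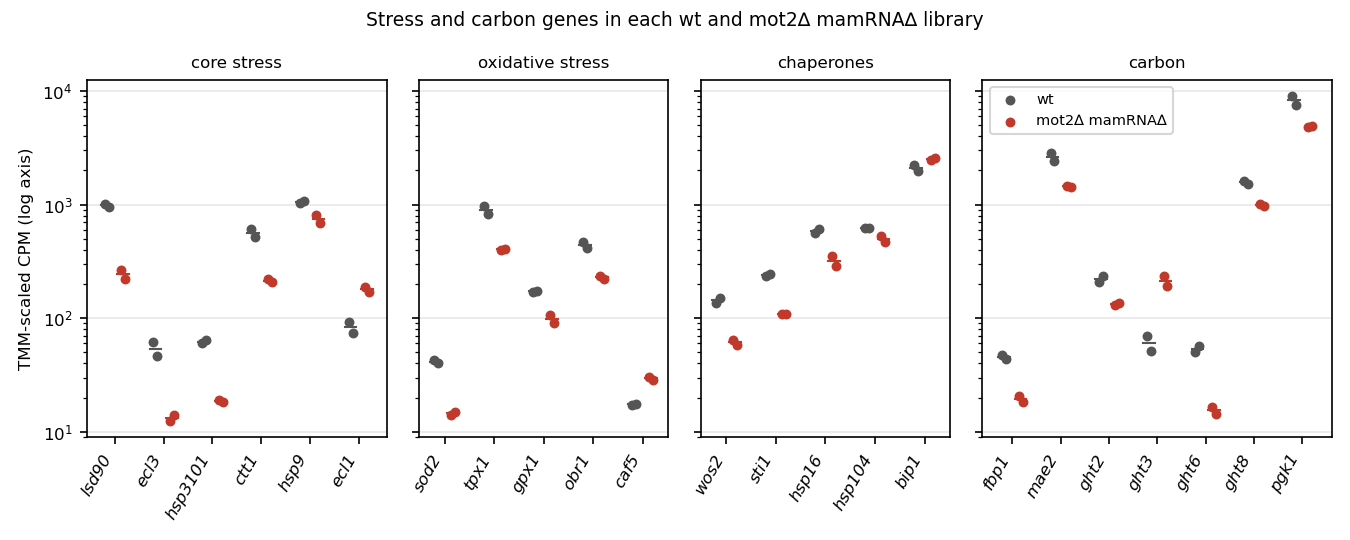
TMM-scaled CPM (log axis) of stress and carbon genes in each of the 2 wt libraries (grey) and 2 mot2∆ mamRNA∆ libraries (red), with short lines at their means. lsd90 lies at 1017 and 946 CPM in wt and at 267 and 221 CPM in the double mutant, and ecl1, caf5, bip1 and ght3 are the genes plotted that rose.

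Genes with names used for ribosome biogenesis factors mostly rose, by moderate amounts. Members were matched by name alone and their functions were not checked, so that some, such as mak1 or spb70, may have other functions. Of 100 tested, 62 rose and 9 fell, 10 were called higher, and the median was 0.50 with a range from -0.82 to 1.3. The nucleolin gar2 measured 75.7 and 79.0 CPM in wt and 199 and 183 CPM in the double mutant (1.3 ± 0.069), and rix1, a factor of large subunit assembly, 103 and 118 CPM against 266 and 280 CPM (1.3 ± 0.081). The proteins of the cytosolic ribosome rose in 54 of 131 cases and fell in 16, with a median of 0.20 and a range from -0.91 to 0.93. The same list has a median gene length of 686 nt. The HomolD box CAGTCACA was found in 82 of the 129 members with a window and in 2.57% of all windows. Mitochondrial ribosomal proteins did not share this, with 10 of 46 higher and 18 lower (median -0.04), and mrpl8 fell from 16.3 and 16.1 CPM to 6.08 and 5.78 CPM. Genes of amino acid synthesis were higher in 30 of 54 cases and lower in 9 (median 0.21). Within this group met9, a folate enzyme of methionine synthesis, rose by 1.15 ± 0.063, and arg7, the last enzyme of arginine synthesis, fell from 17.4 and 21.5 CPM to 2.81 and 2.77 CPM (-2.81 ± 0.15).

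Sterol synthesis and its oxygen-responsive regulators rose in 15 of 34 cases and fell in 4, with a range from -0.40 to 0.94. The methylsterol oxidase erg25 (0.94 ± 0.079), the transcription factor sre1 (0.76 ± 0.099) and its regulators nro1 (0.86 ± 0.075) and ofd1 (0.64 ± 0.076) changed most. Among cell wall genes, 9 of 24 rose and 8 fell, and all 3 called were glucan enzymes that rose. eng1, the glucanase that opens the septum at cell separation, rose from 43.4 and 47.1 CPM to 140 and 157 CPM (1.71 ± 0.11), and the meiotic glucanosyltransferase gas4 by 1.32 ± 0.077. Surface flocculins were divided, with pfl3 (193 and 176 CPM against 559 and 593 CPM) and fta5 higher and pfl7 lower. The flocculin gsf2 rose by 0.82 ± 0.093, well under its change in mot2∆ (4.25) and mamRNA∆ (3.4). Mating and pheromone genes were higher in 5 of 28 cases and lower in 9. mfm1, which encodes the M-factor pheromone, measured 26.1 and 18.8 CPM in wt and 36.1 and 35.3 CPM in the double mutant (0.68 ± 0.14), against a log2 fold change of 3.91 in mot2∆. The Ste11 element TTCTTTGTT was found in 12 of the 28 windows of these genes and in 1.63% of all windows. Proteasome subunits (10 of 34 higher, 12 lower), histones (2 of 11 higher, 4 lower) and purine synthesis (4 of 12 higher, 3 lower) had medians within 0.07 of 0. None of the 13 Tf2 retrotransposon features, near-identical copies whose reads cannot be placed with certainty, passed edgeR's test, and 0 of them had an unadjusted p under 0.05 or passed in DESeq2.

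Many of the largest decreases belonged to features near chromosome ends. Within 50 kb of the ends of chromosomes I and II in build ASM294v3, 30 of 61 tested features were called lower and 3 higher, with a median log2 fold change of -1.24. Between 50 and 100 kb the median was -0.59 with 24 of 68 called lower and 9 higher, between 100 and 150 kb it was -0.43 with 21 of 87 lower and 3 higher, and beyond 150 kb it was -0.003 with 225 of 4590 lower and 124 higher. The share called higher was thus 13.2% between 50 and 100 kb and 2.7% beyond 150 kb. Sense features with few reads were called lower more often wherever they lay (17.7% below 1 CPM and 14.8% from 1 to 10 CPM). A feature with few reads can also pass the filter through the genotype in which it is higher. The part of level in the counts near the ends was not tested. Of the 9 features called higher between 50 and 100 kb, 7 lay in 1 run on the left arm of chromosome I, from ght3 to fta5. The right end of chromosome II was the most affected, with 21 of 31 features within 100 kb called lower and a highest value of 0.96, against 17 of 39 lower and 8 higher at the left end of chromosome I. This right end includes the phosphate genes pho84 and pho1. Other phosphate genes that were called lower lie elsewhere, tgp1 farther in on chromosome II, SPAC23D3.12 on chromosome I and vtc4 on chromosome III. From pho84 through pho1 to SPBPB2B2.06c, a stretch of 27.1 kb, 8 of 10 features tested were called lower, among them the permease SPBPB2B2.01 and mug180, annotated as a sterol deacetylase, which fell from 12.5 and 12.8 CPM to 1.48 and 1.02 CPM. SPAC212.02 and SPBCPT2R1.02, both uncharacterized and close to an end, had 9 to 13 reads in the wt libraries and none in either double mutant library, which puts them at least 4.93-fold and 3.94-fold lower against a floor of 3 reads per library. SPAC977.08, a predicted dehydrogenase listed among the largest decreases, had only 2 and 4 reads in wt and did not pass when either double mutant library or wt replicate 2 was left out. Subtelomeric families hold near-identical copies, such as SPBC1348.10c and SPAC977.09c, so that reads may be shared between them.

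Within 100 kb of the ends, 12 features were called higher and 54 lower. SPAC750.08c, annotated as a malic enzyme and placed at the right end of chromosome I, rose from 1.03 and 0.724 CPM to 7.2 and 6.74 CPM (3.01 ± 0.19). A run of increases lay on the left arm of chromosome I. Between ght3 and fta5, over 18.5 kb, 7 of the 8 features tested were called higher. Here ght3 (1.81) is followed by shu1, str3 (6.43), the overlapping noncoding RNAs SPNCRNA.604 (3.33 ± 0.26) and SPNCRNA.139 (3.49 ± 0.29), the predicted hydrolase SPAC1F8.04c (2.27 ± 0.14), isp3 (0.84) and fta5 (1.69 ± 0.15). SPNCRNA.604 and SPNCRNA.139 share most of their length, and their levels of 0.751 to 1.12 CPM in wt against 9.54 to 10.4 CPM in the double mutant may come from the same reads. Farther in on chromosome II, between the putative transcription factor SPBC1773.12 and the arginase car1, all 8 features tested over 17.1 kb were called lower. SPBC1773.12 fell from 13.3 and 14.9 CPM to 1.36 and 1.55 CPM (-3.28 ± 0.15), the aminotransferase SPBC1773.13 by 3.23 ± 0.13, arg7 by 2.81 ± 0.15, the dipeptide transporter dal52 by 2.13 ± 0.08 and car1 by 1.77 ± 0.08. These neighbourhoods were chosen after their values were seen.

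**Figure D5:**
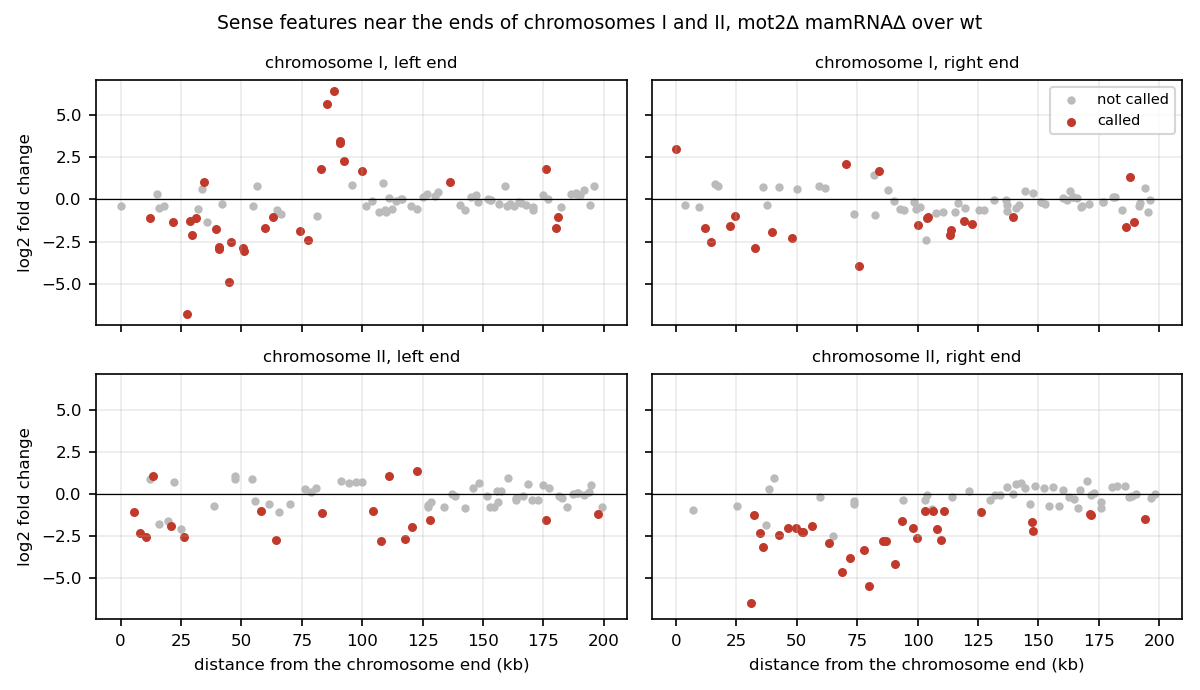
Log2 fold change of mot2∆ mamRNA∆ over wt (y axis) against the distance of each tested sense feature from the nearest end of the chromosome in build ASM294v3 (x axis, kb), for both ends of chromosomes I and II. Red points were called and grey points were not. The right end of chromosome II holds 21 called decreases within 100 kb, and the peak at the left end of chromosome I is str3 with its neighbours.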

How the data were processed

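The authors deposited raw counts, 1 file per library, of reads per annotated feature. Libraries were sequenced as paired-end reads of 75 nt. Per the study's methods and the submitters' processing notes, reads were demultiplexed with bcl2fastq 2.18.12, trimmed with Cutadapt 1.15, aligned with Bowtie2 and counted per feature with MulticovBed. The genome build, annotation and strand setting are not given in the sources used here. Counts of 6338 sense and 635 antisense features were read, and 6193 sense features matched an entry of the RefSeq annotation of ASM294v3 by name, which gave gene products, positions and upstream windows of 250 bases. mamRNA was not analysed here.

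Counts of all 8 libraries were fitted in edgeR 4.0.16 (R 4.3.3), with 1 coefficient per genotype, TMM scaling and filterByExpr (minimum count 10, minimum total 15), and mot2∆ mamRNA∆ was contrasted with wt. This left 6620 features, over which p-values were adjusted. A standard error is the log2 fold change divided by the root of the F statistic. Counting intervals and floors (3 counts) cover counting error only. The procedure was tested on simulated data. Named genes were the 12 largest increases and 12 largest decreases among called sense features whose libraries did not overlap, up to 4 members per list with the largest changes, and the regulators in the metal, phosphate and thiamine lists. Other names in the text are list members given for context or are said to be chosen after their values were seen. Members and lists were chosen with earlier results of these data known. With 2 libraries per genotype an exact permutation test of a single gene cannot reach 0.05, so tests come from models fitted across all features, edgeR in the main and DESeq2 as an alternative. Alternatives were RLE factors, total counts, leaving out dominant features, DESeq2 1.42.0, other filters, sense features only, 4 libraries only, a replicate block, and leaving out each library.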

Additional observations from a re-analysis of the deposited data

Results flagged for a closer look

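The change from wt to mot2∆ mamRNA∆ can be compared with the sum of the changes in the single mutants, and 6 nutrient genes chosen after their values were seen passed edgeR's test of that interaction, as did 47.6% of all sense features. Put otherwise, the effect of losing mamRNA differed between cells with and without Mot2. The interaction on the log2 scale was -4.06 for pho1 (adjusted p = 2.72e-09), -1.59 for ght6 (adjusted p = 3.65e-06), 2.22 for frp2 (adjusted p = 7.41e-06), 1.3 for tgp1 (adjusted p = 4.66e-06), 1.78 for str3 (adjusted p = 0.0268) and 0.49 for vtc4 (adjusted p = 0.00821). For tgp1 and vtc4 all 3 mutants were below wt, whereas ght6 was above wt in mot2∆ and below it in the other 2 mutants. The 3 mutants share their 2 wt libraries, and the single mutants carry other selection markers than the double mutant.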

How the results depend on the processing

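The 188 sense features called higher and 348 lower in mot2∆ mamRNA∆ stayed within 1.5 times these counts under every alternative tried except one, which dropped the fold threshold and gave 1742 higher and 1815 lower. Leaving out 1 of the 4 libraries compared gave 190 to 220 higher and 283 to 368 lower, the fewest lower calls coming without wt replicate 2. DESeq2 called 177 higher and 333 lower, and total-count scaling, which moved the median of all sense features to -0.063, called 163 and 374. The fit with the replicate block called 187 higher and 353 lower. Across features, the replicate differences of wt and the double mutant correlated at 0.0131. With only 2 pairs this value cannot tell whether replicate numbers pair the libraries. The block changed no call of the genes named in the report except that zrt1 and bip1 no longer passed (edgeR adjusted p = 0.0749 and 0.0614) and php5 and caf4 did. The median of the hexose transporters turned to 0.089 when 10 counts were required in every library, which leaves out ght7, and that of the oxidative stress genes ranged from -0.149 without wt replicate 2 to 0.014 without wt replicate 1, and the cause of the latter was not tested. Over 506 genes and all alternatives, 254 gene results no longer passed the threshold, 115 came to pass it and 6170 did neither, and no gene that passed changed its direction. Among genes named, calls lost in some alternatives were those of SPAC977.08, grx4, csk1, asp1, zrt1, cis4, bip1, hsf1, sty1, hsp104, sib2, fip1, nmt1, gld1, dak1 and dak2. Precision is limited by 2 libraries per genotype and, for features with few reads such as shu1, by counting error.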

Other observations

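Noncoding RNAs moved in both directions. Of 685 long noncoding RNAs tested, 45 were called higher and 74 lower (6.57% and 10.8%, against 3.14% and 5.81% of all sense features). Sense features with few reads of any kind were called more often too (10.1% higher and 17.7% lower below 1 CPM, 5.21% and 14.8% from 1 to 10 CPM), and the part of level in the count of noncoding RNAs was not tested. SPNCRNA.317 and the overlapping small protein gene new14 were among the largest increases, but with 1 read in all in wt for SPNCRNA.317 the ratio of 61.0 has a counting interval of 10.6 to 2440. prl19 fell from 2.39 and 2.86 CPM to 0.363 and 0.264 CPM, and SPNCRNA.1342 from 0.516 and 0.506 CPM to 0.0303 and 0.066 CPM. Of 193 transfer RNA features listed by name, 43 passed the filter on low counts, and 11 of these were called higher. With so few reads a feature can pass that filter through the genotype in which it is higher, so that the count is given as a description. Of 57 small nucleolar RNAs tested, 7 were called higher (12.3%, against 3.14% of all sense features), and the lowest value was -0.73. snR33 rose from 5.54 and 4.20 CPM to 28.4 and 28.7 CPM (2.57 ± 0.13). Of 15 ribosomal RNA features, 11 were called lower, but the wt libraries differed from each other, as in SPRRNA.44 with 2336 and 685 CPM in wt against 143 and 116 CPM in the double mutant. The part of ribosomal RNA depletion in these values was not tested.

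Further groups were chosen after their values were seen and are given as descriptions. The galactose genes gal1 (-2.04 ± 0.12), gal7 (-1.93 ± 0.16) and gal10 (-2.27 ± 0.18) all fell, gal1 from 23.5 and 26.3 CPM to 6.41 and 5.71 CPM. They lie 49.5 to 56.1 kb from the right end of chromosome II, where 21 of 31 features within 100 kb were called lower. The part of this position in their decrease was not tested. The cell cycle genes cdc22 (1.44 ± 0.11), which encodes the large subunit of ribonucleotide reductase, and mik1 (1.37 ± 0.13), an inhibitor of mitotic entry, rose. The meiotic kinase gene mde3 rose from 24.6 and 23.3 CPM to 147 and 140 CPM (2.59 ± 0.072) and mcp2 from 42.5 and 41.7 CPM to 162 and 167 CPM (1.96 ± 0.065). The mug and meu genes of meiosis as a list were called higher in 7 of 128 cases and lower in 6. These shares of 5.47% and 4.69% stand beside 3.14% and 5.81% of all sense features.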
